A study of Homo sapiens with 4 samples.

Results

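Hairpins derived from LINE-2 repeats, ancient mobile elements now fixed in mammalian genomes, give rise to miR-28, miR-151a and miR-708. The 6 mature miRNAs described here are both arms of these 3 hairpins (hsa-miR-28-5p, hsa-miR-28-3p, hsa-miR-151a-5p, hsa-miR-151a-3p, hsa-miR-708-5p and hsa-miR-708-3p), chosen by name out of the 2656 rows of the deposited miRNA table. All 6 passed the filter on low counts, as did 773 rows in all. Small RNA was sequenced from HEK293T cells, a human embryonic kidney line that carries the SV40 large T antigen. All 4 libraries came from monoclonal lines with a landing pad, a genomic site built to accept a transgene, and they were grown and harvested in the same way. The PGK group (2 libraries) had a pad with the phosphoglycerate kinase promoter, and the CAG group (2 libraries) had a pad with the CAG promoter, a synthetic element with cytomegalovirus enhancer and chicken beta-actin parts. The comparison of CAG with PGK lines asks which miRNAs differ in level between them. Each line is 1 clone and the number of lines is not stated in the labels, so promoter and clone cannot be told apart. No label says that replicates were separate cultures, so p-values measure only the spread between these samples.

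A miRNA hairpin is cut out of a longer transcript, often a host intron, by Drosha and then trimmed by Dicer to a duplex of a 5p and a 3p arm. Usually 1 arm is kept in an Argonaute protein and the other is degraded, so reads of both arms report hairpin supply together with arm choice. The seed, bases 2 to 8 from the 5′ end, is the main determinant of target pairing. miR-28 has been studied in B cells and platelets, miR-151a with its host in cell migration, and miR-708 in the response to endoplasmic reticulum stress.

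The sequences show how closely the hairpins are related and which arms could act on the same targets. RefSeq (GRCh38.p14) held a matched mature sequence that is printed here for 3 of the 6 members. They are written 5′ to 3′ with the seed in capitals.
miR-708-5p: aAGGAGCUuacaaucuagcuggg
miR-708-3p: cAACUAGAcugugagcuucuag
miR-28-3p: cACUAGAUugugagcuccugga
The 3p arms of miR-28 and miR-708 were near copies set off by 1 base. With base 1 of miR-28-3p placed opposite base 2 of miR-708-3p, 17 of 21 positions were identical. The 4 substitutions, with the miR-28-3p base first, positions counted from its 5′ end and the miR-708-3p base last, were C1A, U8C, C17U and G20A. The 3p arms had different seeds, ACUAGAU for miR-28-3p and AACUAGA for miR-708-3p, through the offset and through C1A and U8C. C1A lies at base 2 of miR-708-3p, in its seed, and U8C lies in the seed of miR-28-3p. No other mature entry of the RefSeq table had either seed. The seed of miR-708-5p, AGGAGCU, was also that of hsa-miR-3139. The reverse complement of the miR-708-5p seed, AGCUCCU, began at base 13 of miR-28-3p, an arm of another hairpin. It did not occur unchanged in miR-708-3p, where C17U alters 1 of its bases, and pairing within the miR-708 duplex was not tested. The 7 bases AGCUCCU, searched on the mature strand only, were found in 3 of 2370 mature entries (0.127%).

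Each hairpin lay on the strand of its host gene and inside an intron (GENCODE release 29, GRCh38). MIR28 (chromosome 3, 188688781 to 188688866, plus strand) was in intron 6 of 10 of the principal transcript of LPP, which codes for a LIM protein of focal adhesions. MIR708 (chromosome 11, 79402022 to 79402109, minus strand) was in intron 1 of 33 of TENM4, a teneurin, a large transmembrane protein of developing neurons. MIR151A (chromosome 8, minus strand) was in intron 22 of 31 of PTK2, which codes for focal adhesion kinase. None of the 5, 1 and 10 protein-coding transcripts of LPP, TENM4 and PTK2 that span these hairpins had an exon over them. Host transcripts were not measured in these libraries.

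Library totals were 7331437 to 7927615 miRNA reads in the PGK group, and 13780279 and 2845945 in CAG replicates 1 and 2. The members took 2.74% to 2.83% of all reads in PGK and 2.23% to 2.53% in CAG libraries. Of 7 miRNAs that mark blood, liver, muscle or neural cells, the summed level was 4.38 and 5.86 CPM (read counts relative to library size, scaled with TMM factors) in PGK and 2.41 and 1.94 CPM in CAG libraries. Of these markers miR-223-3p had 0 reads in every library. miR-133a-3p stood at 2.50 and 1.95 CPM in PGK and at 0.311 and 0 CPM in CAG replicates 1 and 2. With both arms summed, miR-133a was lower in CAG (log2 fold change -3.29, edgeR quasi-likelihood test, Benjamini-Hochberg adjusted p = 0.0105). miR-122-5p stood at 0.751 and 2.65 CPM in PGK and at 1.55 and 0 CPM in CAG replicates 1 and 2. These levels rest on few reads, and the part of the markers in the differences below was not tested.

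Levels of the 6 arms spanned more than 2 orders of magnitude, in the order miR-151a-3p, miR-28-3p, miR-151a-5p, miR-708-5p, miR-28-5p and miR-708-3p. A single read spans a whole mature miRNA and all are of about the same length, so no correction for length was made, but adapter ligation favours some sequences and weakens comparisons between miRNAs. miR-151a-3p ranked 8 of the 773 tested miRNAs by mean level, and miR-28-3p ranked 79. Ranks of the 4 others ran from 155 (miR-151a-5p) to 238 (miR-708-3p). miR-151a-5p and miR-708-5p did not differ beyond their spread in PGK cells, where their ranges overlapped. The order of miR-708-5p and miR-28-5p differed between the groups, as described below with their shared seed.

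**Figure D1:**
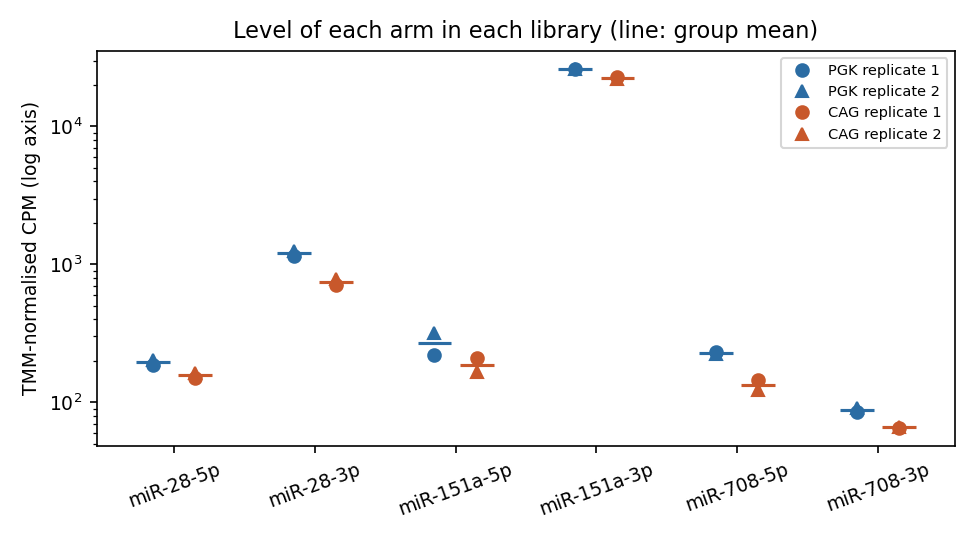
Level of each of the 6 arms in TMM-normalised CPM on a log axis, with blue for PGK, orange for CAG, circles for replicate 1, triangles for replicate 2 and lines for group means. For each arm both CAG libraries lie below both PGK libraries, and miR-151a-3p stands at 22070 CPM or more in all 4.

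All 6 arms were lower in both CAG libraries than in either PGK library, and 2 of them passed the test: miR-28-3p and miR-708-5p, the more abundant arms of the miR-28 and miR-708 hairpins (edgeR quasi-likelihood test, Benjamini-Hochberg adjusted p under 0.05). Over all 773 tested miRNAs, 14.2% were called in either direction, 6.08% lower and 8.15% higher. Groups that did not overlap were found with CAG lower for 27.4% and with CAG higher for 29.8% of tested miRNAs. The 6 arms are readings of 3 hairpins, not 6 independent ones. Their median log2 fold change was -0.46, beside -0.0042 over all tested miRNAs. With library size scaling in place of TMM the 6 arms were again lower in both CAG libraries.

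miR-28-3p is the main product of the LPP hairpin. It stood at 1143 and 1254 CPM in PGK replicates 1 and 2, and at 710 and 782 CPM in CAG replicates 1 and 2. The gap between the groups was larger than the gap within either pair. The means were 1199 ± 78.5 CPM in PGK and 746 ± 50.9 CPM in CAG (SD, n = 2). It fell by 0.68 on the log2 scale (SE 0.17, 95% interval -1.07 to -0.30; edgeR adjusted p = 0.0257). miR-28-5p, the minor arm, stood at 187 and 203 CPM in PGK and at 150.8 and 162 CPM in CAG replicates 1 and 2. Its log2 fold change of -0.32 (SE 0.18, 95% interval -0.72 to 0.08) did not pass the test (edgeR adjusted p = 0.28).

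miR-708-5p is the main product of the TENM4 hairpin. It stood at 229.9 and 224 CPM in PGK and at 144 and 123 CPM in CAG replicates 1 and 2. Both CAG libraries were well below the PGK pair, whose values were close to each other. The means were 227 ± 4.10 CPM in PGK and 134 ± 14.8 CPM in CAG (SD, n = 2). It fell by 0.76 on the log2 scale (SE 0.19, 95% interval -1.17 to -0.34; edgeR adjusted p = 0.0235). miR-708-3p stood at 84.5 and 90.6 CPM in PGK and at 65.5 and 66.4 CPM in CAG replicates 1 and 2. Its groups did not overlap, but its log2 fold change of -0.41 (SE 0.19, 95% interval -0.83 to 0.01) was not called (edgeR adjusted p = 0.192).

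The calls of miR-28-3p and miR-708-5p were lost when either PGK library was left out, while their fold changes stayed of similar size. Without PGK replicate 1 the log2 fold changes were -0.77 and -0.76 (edgeR adjusted p = 0.159 and 0.171), and without PGK replicate 2 they were -0.62 and -0.79 (0.238 and 0.202). In these fits 19 and 16 of all tested miRNAs were called, in place of 110. With the replicate number as a block the edgeR adjusted p-values were 0.0640 and 0.0507.

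miR-151a-3p, the most abundant member, stood at 26206 and 25945 CPM in PGK and at 22630 and 22070 CPM in CAG replicates 1 and 2. Replicates were within a few percent of each other and the groups did not overlap. The log2 fold change was small at -0.22 (SE 0.14, 95% interval -0.53 to 0.09) and did not pass the test (edgeR adjusted p = 0.322). miR-151a-5p was the least even member, at 219.6 and 319 CPM in PGK and at 209 and 165 CPM in CAG replicates 1 and 2. PGK replicate 1 lay closer to CAG replicate 1 than to PGK replicate 2. Its log2 fold change was -0.52 (SE 0.23, 95% interval -1.02 to -0.02; edgeR adjusted p = 0.17), and of 13 alternatives it was called only in the 1 that left out CAG replicate 1 (log2 fold change -0.70, edgeR adjusted p = 0.0342).

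Counts of miR-151a-5p cannot be fully separated from those of miR-151b, an entry from a hairpin on chromosome 14 whose mature sequence overlaps it. miR-151b had 170 and 262 reads in PGK and 204 and 44 reads in CAG replicates 1 and 2. These were 7.04% to 10.3% of the reads of both entries in each library. The log2 fold change of miR-151b was -0.92 (SE 0.30) and it was not called (edgeR adjusted p = 0.0679). It was called without CAG replicate 2 (-0.85, edgeR adjusted p = 0.0480), and its log2 fold change was -1.28 without PGK replicate 1 and -0.50 without PGK replicate 2. The deposited seed family that matched the sum of both entries within 3 reads had a log2 fold change of -0.59 (SE 0.24; edgeR adjusted p = 0.155). Seed families as a whole had 10.4% called.

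**Figure D2:**
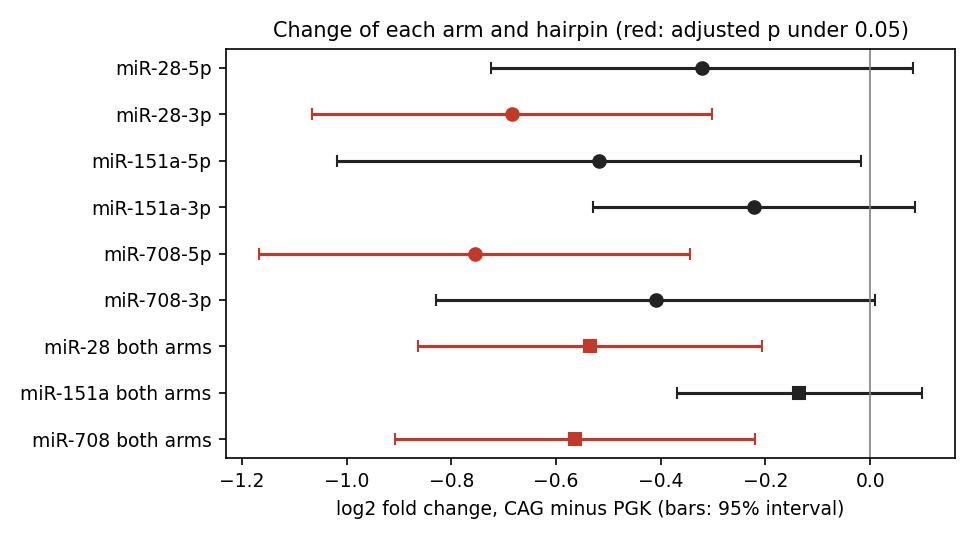
Log2 fold change, CAG minus PGK, of each arm (circles) and of the reads of both arms of each hairpin summed (squares), with 95% intervals as bars and red for edgeR adjusted p under 0.05. All points lie below 0, and miR-28-3p, miR-708-5p and the sums of miR-28 and miR-708 are red.

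Reads of both arms were then summed per hairpin. The more abundant arm made up 82.5% to 86.1% of the miR-28 sum, 65.0% to 73.1% of the miR-708 sum and 98.8% to 99.3% of the miR-151a sum. The sums are thus not separate support for the calls of the arms. Among 394 hairpins tested in this way 18.8% were called. The miR-28 sum fell by 0.54 on the log2 scale (SE 0.14; edgeR adjusted p = 0.0375), and the miR-708 sum fell by 0.56 (SE 0.15; edgeR adjusted p = 0.0375). The miR-151a sum had a log2 fold change of -0.14 (SE 0.0999, 95% interval -0.37 to 0.10) and was not called (edgeR adjusted p = 0.403). These sums have scaling factors of their own. With the scaling of the miRNA table, tried after seeing the data, the log2 fold changes were -0.63, -0.65 and -0.23 for miR-28, miR-708 and miR-151a, with the same calls. The miR-151a sum was at -0.22 without CAG replicate 2. Both calls were lost without PGK replicate 1 (log2 fold changes -0.67 for miR-28 and -0.63 for miR-708; edgeR adjusted p = 0.148 and 0.166) and without PGK replicate 2 (-0.52 and -0.61; 0.205 and 0.17), where 12 and 11 of all hairpin sums were called in place of 74. Both held with the replicate block (edgeR adjusted p = 0.0364 and 0.0397). The miR-28 sum also lost its call without CAG replicate 1 (edgeR adjusted p = 0.0777).

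Ratios between the hairpins within a library do not depend on scaling. The miR-151a hairpin gave 84.1 and 83.5 reads per read of the miR-708 hairpin in PGK, and 109 and 117 in CAG replicates 1 and 2. Both CAG values were above both PGK values, with a log2 difference of 0.43 (two-sided exact permutation p = 0.333, the smallest that 2 against 2 libraries allow). The ratio of the miR-28 to the miR-151a hairpin was 0.0503 and 0.0555 in PGK and 0.0377 and 0.0425 in CAG, a log2 difference of -0.40 (exact permutation p = 0.333). For miR-28 over miR-708 the ratios were 4.23 and 4.63 in PGK and 4.10 and 4.97 in CAG, so the CAG pair enclosed the PGK pair (log2 difference 0.03, exact permutation p = 1). Adjusted over these 3 pairs the exact permutation p-values were 0.5, 0.5 and 1. This design could not have passed 0.05 for any pair.

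The hairpins differed in which arm gave more reads and by how much. Adapter ligation favours some sequences, so read shares of the arms may differ from their shares in the cell. The 5p arm made up 0.743% to 1.21% of miR-151a reads, 13.9% to 17.5% of miR-28 reads and 65.0% to 73.1% of miR-708 reads. These ranges were far apart in every library. miR-151a-3p outnumbered its 5p arm 81.3 to 134 times, and miR-28-3p outnumbered its own 4.71 to 6.19 times. In miR-708 the order was the opposite, with 1.86 to 2.72 reads of the 5p arm per read of the 3p arm. Of 276 hairpins with at least 10 reads of each arm over the 4 libraries, 141 were dominated by the 3p arm and 135 by the 5p arm. The median imbalance between arms was 9.81-fold. Imbalance was smaller than in miR-151a for 83.3% of these hairpins, smaller than in miR-28 for 38.4% and smaller than in miR-708 for 20.3%.

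**Figure D3:**
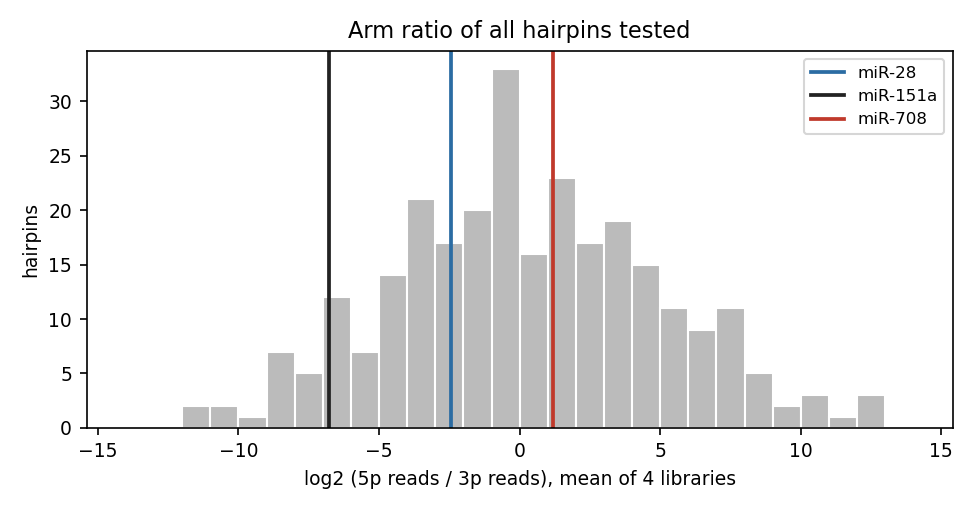
Histogram of the mean log2 ratio of 5p to 3p reads over 4 libraries for 276 hairpins, with vertical lines for the 3 hairpins described. miR-151a (-6.77) and miR-28 (-2.44) lie on the 3p side of 0 and miR-708 (1.20) on the 5p side.

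No arm ratio of these hairpins passed the test between the groups. For miR-28 the 5p share was 14.1% and 13.9% in PGK and 17.5% and 17.1% in CAG replicates 1 and 2. The exact 95% binomial intervals of the PGK libraries (13.4% to 14.7% and 13.3% to 14.6%) did not reach those of the CAG libraries (16.8% to 18.2% and 15.8% to 18.5%). Such intervals cover counting error alone and not the spread between libraries. PCR copies of a molecule may count as separate reads, which would make the intervals too narrow. The log2 ratio of 5p to 3p reads averaged -2.62 in PGK and -2.25 in CAG, with SDs of 0.01 and 0.03 (n = 2). Against the spread shared over all hairpins this difference of 0.36 (SE 0.29, 95% interval -0.20 to 0.93) did not pass the test (limma adjusted p = 0.999).

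For miR-708 the 5p share was 73.1% and 71.2% in PGK and 68.8% and 65.0% in CAG replicates 1 and 2. Both CAG libraries were below both PGK libraries, and the counting interval of CAG replicate 1 (67.0% to 70.5%) overlapped that of PGK replicate 2 (69.3% to 73.1%). The log2 ratio of 5p to 3p reads differed by -0.36 (SE 0.32, 95% interval -0.98 to 0.26; limma adjusted p = 0.999), and by -0.23 without CAG replicate 2. The share of the minor arm was larger in CAG than in PGK libraries for miR-28 and miR-708, but neither difference passed the test. How many of all 276 hairpins had arm shares that separate the groups was not counted, so no trait particular to these hairpins is read from it. For miR-151a the 5p share was 0.831% and 1.21% in PGK and 0.915% and 0.743% in CAG, so the groups overlapped (log2 difference -0.29, SE 0.28, limma adjusted p = 0.999). This difference was -0.56 without PGK replicate 1, -0.44 without CAG replicate 1, -0.14 without CAG replicate 2 and -0.01 without PGK replicate 2, so its size rested on single libraries. Of all 276 hairpins 0.362% were called for a change in arm ratio. An exact permutation test over the 4 libraries gave p = 0.333, 0.667 and 0.333 for miR-28, miR-151a and miR-708.

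**Figure D4:**
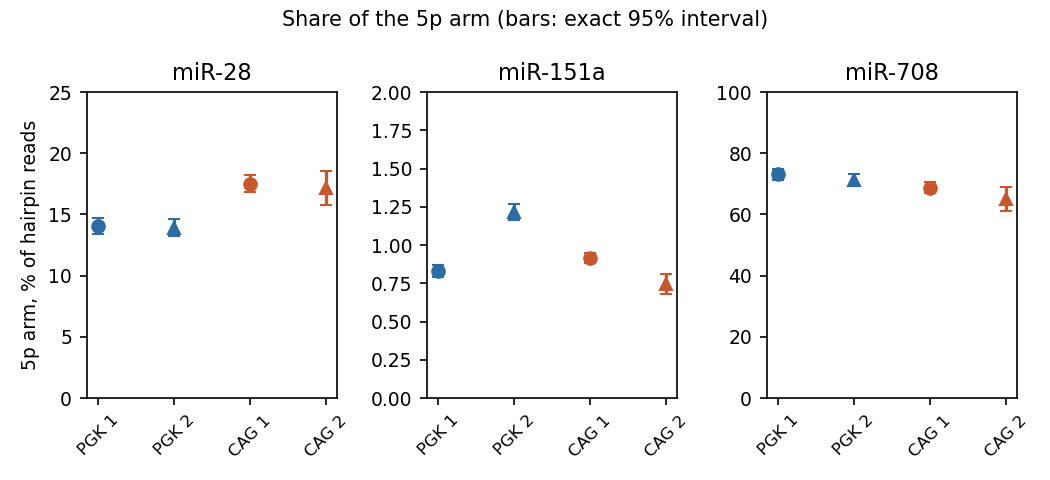
Share of the 5p arm in the reads of each hairpin, in percent, for each library, with exact 95% binomial intervals as bars and a separate vertical axis from 0 for each hairpin. The miR-28 share is higher in both CAG libraries (17.1% and 17.5%) than in both PGK libraries (13.9% and 14.1%), and the miR-708 share is lower in both.

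miR-28-5p and miR-708-5p were counted under the same seed, AGGAGCU (capitals in the sequence of miR-708-5p above), so they could pair with the same target sites. Reads of this seed family were theirs for 98.9% to 99.7%, and the rest matched hsa-miR-3139 within 3 reads in every library. The family stood at 423 and 436 CPM in PGK and at 297 and 282 CPM in CAG replicates 1 and 2. Its log2 fold change of -0.57 (SE 0.17, 95% interval -0.95 to -0.19) did not pass the test (edgeR adjusted p = 0.0634). The family with seed ACUAGAU had the counts of miR-28-3p and the family with seed AACUAGA those of miR-708-3p, so neither is a separate reading.

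Within the shared seed, both miRNAs gave nearly equal numbers of reads, though adapter ligation weakens such a comparison between sequences. miR-708-5p made up 55.1% (exact 95% binomial interval 53.4% to 56.8%) and 52.5% (50.7% to 54.3%) of the reads of both miRNAs in PGK replicates 1 and 2. In CAG replicates 1 and 2 its share was 48.9% (47.3% to 50.5%) and 43.3% (39.99% to 46.6%). The intervals of the PGK libraries did not reach those of the CAG libraries, and CAG replicate 2, the shallowest library, lay furthest from them. Such intervals cover counting error alone, and those of CAG replicates 1 and 2 did not meet each other either. The log2 ratio of miR-28-5p to miR-708-5p averaged -0.22 in PGK and 0.23 in CAG, a difference of 0.45 (exact permutation p = 0.333). This ratio was examined after its values were seen.

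**Figure D5:**
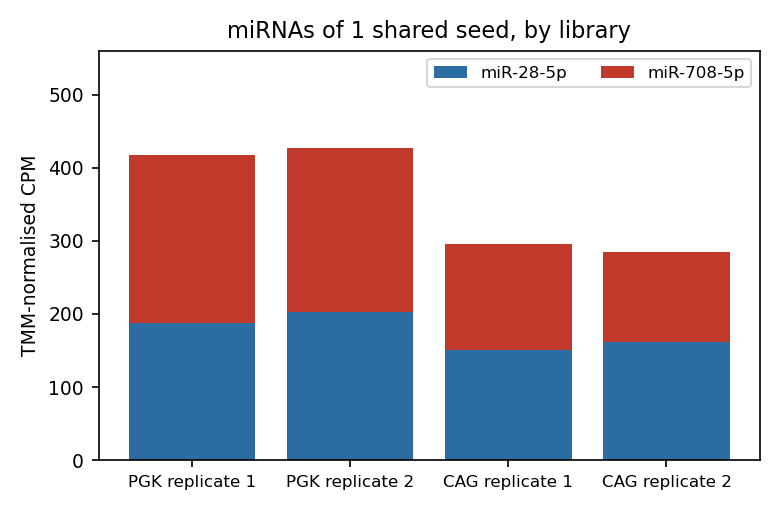
TMM-normalised CPM of miR-28-5p (blue) and miR-708-5p (red), stacked from 0, in each library. The red part is 229.9 and 224 CPM in the PGK libraries and 144 and 123 CPM in the CAG libraries, and the blue part is 187 and 203 against 150.8 and 162 CPM.

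For comparison, 3 mature miRNAs of other LINE-2 hairpins, miR-95 and miR-325, were looked up, and 1 of them passed the filter on low counts. miR-95-3p stood at 298 and 336 CPM in PGK and at 288 and 300.5 CPM in CAG replicates 1 and 2. Its log2 fold change was -0.11 (SE 0.18, 95% interval -0.51 to 0.29; edgeR adjusted p = 0.748). miR-95-5p had 1 read over the 4 libraries and miR-325 had 0, which at 3 counts allows a level of at most 0.233 CPM for CAG replicate 1, the deepest library, and 0.972 CPM for CAG replicate 2. In a list of 26 single-copy hairpins in introns of protein-coding genes, which includes miR-95, 41 arms were tested. Of these, 2 were called higher and 1 lower in CAG, beside 8.15% and 6.08% of all tested miRNAs. The median log2 fold change of the list was -0.11, which is the value of miR-95-3p itself. The risers were miR-361-3p (0.87, edgeR adjusted p = 0.0476) and miR-330-3p (0.79, 0.0435), and miR-340-5p fell by 0.57 (0.0365). Lower levels in CAG were found for 23 of the 41, beside 388 of all 773 tested miRNAs.

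Patterns over the 4 libraries were compared by the root-mean-square difference of log2 CPM from each miRNA's own mean, among 357 other miRNAs averaging 20 CPM or more. The closest to miR-28-3p were miR-424-5p (0.04) and miR-378f (0.05), and to miR-28-5p miR-502-3p (0.04) and miR-589-5p (0.05). Closest to miR-708-5p were miR-574-5p (0.07) and miR-2110 (0.09), and to miR-708-3p miR-589-5p (0.03) and miR-140-3p (0.04). For miR-151a-3p they were miR-183-5p (0.03) and miR-30c-2-3p (0.04), and for miR-151a-5p miR-346 (0.06) and miR-1343-3p (0.08). Among the members themselves, miR-28-5p and miR-708-3p, the minor arms of their hairpins, were the closest pair at 0.05. The arms of a hairpin were further apart, at 0.18 for miR-28, 0.20 for miR-708 and 0.26 for miR-151a. Being a minor arm did not go with this pattern in miR-151a. Its minor arm, miR-151a-5p, was at 0.24 from miR-28-5p and 0.21 from miR-708-3p, and its major arm, miR-151a-3p, at 0.08 and 0.10. These values describe 4 libraries and carry no test.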

How the data were processed

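The authors deposited whole-number counts per mature miRNA and per seed family, with 1 column per library and no pooling. Per the labels' protocols, total RNA was extracted with Trizol and the NEBNext kit for small RNA was used, which ligates adapters and amplifies by PCR. No label names the trimming, aligner, annotation, build or handling of reads that match several miRNAs, which are thus not given in the sources used here. Groups and replicate numbers came from sample titles.

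The main test was edgeR 4.0.16 in R 4.3.3 (robust quasi-likelihood) run on counts as deposited, TMM factors of 0.935 to 1.08, the default low-count filter (minimum count 10, minimum total 15) and group as the only term. Fold changes are CAG minus PGK, and p-values were adjusted by Benjamini-Hochberg over all rows tested at a threshold of 0.05. SEs were derived from the F statistic. Hairpin sums used the same fit on rows with both a 5p and a 3p entry. Arm ratios, log2((5p + 0.5)/(3p + 0.5)), were tested with limma 3.58.1 (trended, robust) over hairpins with at least 10 reads of each arm. The scripts were tested on simulated data. Figures used Python 3.11.15 and matplotlib 3.10.9.

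A single read was worth 0.0777 CPM in CAG replicate 1, the deepest, and 0.324 CPM in CAG replicate 2, the shallowest. Named were the members, miR-151b, their seed families, other LINE-2 hairpins, called members of the host-intron list and the 2 closest patterns per member. Members and lists were chosen with earlier results of these data known. The alternatives tried were scaling by RLE, library size or upper quartile, other filters, DESeq2 1.42.0, limma-voom, a replicate block, each library left out, the scaling of the miRNA table for hairpin sums (added after seeing the data), a threshold of 0.01, and for arm ratios a pseudocount of 5, 100 reads per arm, an untrended prior and an edgeR interaction. Counts of replicates differed by far more than counting noise, so no library was a copy of another.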

Additional observations from a re-analysis of the deposited data

How the results depend on the processing

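Each of the 6 arms kept a negative fold change under all 13 alternatives run. The calls of miR-28-3p and miR-708-5p each held in 9 of 13. With the replicate block their log2 fold changes were -0.68 and -0.76, and neither was called. The family with seed ACUAGAU, which repeats the counts of miR-28-3p, was called in the main fit (log2 fold change -0.72, edgeR adjusted p = 0.0262). With the block this family had -0.72 and was not called. Under the block 63 miRNAs, 64 hairpin sums and 21 families were called in place of 110, 74 and 67. The replicate numbers do not show pairing: differences between replicates 1 and 2 had a correlation of -0.0153 between the groups. At a threshold of 0.01 miR-28-3p (-0.68) and miR-708-5p (-0.76) were not called, and 49 miRNAs were. With library size scaling 93 families were called. Arm ratio calls numbered 2 with a pseudocount of 5, and 0 with 100 reads per arm, an untrended prior or the edgeR interaction, in place of 1; no arm ratio of miR-28, miR-151a or miR-708 was called in any of 9 alternatives. With the more abundant arm alone, the log2 ratio of miR-151a to miR-708 differed by 0.54. The cause of these differences was not tested.

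Leaving out each library in turn gave log2 fold changes of -0.77 to -0.61 for miR-28-3p, -0.87 to -0.65 for miR-708-5p, -0.78 to -0.24 for miR-151a-5p, -0.71 to -0.52 for the miR-28 sum, -0.68 to -0.60 for the miR-708 sum, -0.22 to -0.19 for the miR-151a sum and -0.82 to -0.68 for the ACUAGAU family. With all 4 libraries the miR-708 and miR-151a sums were at -0.56 and -0.14, outside these ranges, and the cause was not tested. The arm ratios ran from -0.56 to -0.01 for miR-151a, -0.48 to -0.23 for miR-708 and 0.35 to 0.38 for miR-28. In the same fits 16 to 162 miRNAs, 11 to 93 hairpin sums, 14 to 60 families and 1 to 3 arm ratios were called. The lone library of a group is then assumed to vary like the other group. Depth limits miR-151b, with 44 reads in the shallowest library, and the miR-708 arm share there.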
